A study of Mus musculus with 16 samples.

Results

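The response of the left ventricle to pressure overload was compared between wild-type (WT) mice and mice lacking the nuclear receptor PPARalpha (PPARalpha-/-, here KO). The quantity described is the difference between 2 responses, (KO TAC minus KO sham) minus (WT TAC minus WT sham), on the log2 scale, and it is called the interaction. It used all 16 of the 16 arrays of the series, in 4 groups of 4 assigned from the sample titles: sham and TAC in WT, and sham and TAC in KO. TAC, transverse aortic constriction, narrows the aorta by surgery so that the ventricle pumps against raised pressure, and tissue was taken after 28 days of TAC or after a sham operation. Total RNA was hybridised to Affymetrix mouse arrays. The labels give no strain, sex, age, knockout allele or cell type of the deletion, and they do not say whether each array held a separate animal, so p-values measure only the spread between these arrays. A positive interaction means a higher response in KO than in WT, whether from a rise in KO or a fall in WT, so both responses are given beside it.

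PPARalpha is a transcription factor that binds lipid ligands, pairs with a retinoid X receptor and activates genes of fatty acid uptake and oxidation, the main fuel route of the adult heart. Under lasting pressure load, heart muscle cells enlarge and re-express fetal genes such as those of the natriuretic peptides, while fibroblasts lay down collagen, proteoglycans and matricellular proteins, which together stiffen the wall. Calcineurin, a phosphatase activated by calcium, and TGF-beta are among the signals known to drive these programmes.

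Ppara, the targeted gene, gave a signal of 1385 to 2308 on the 8 WT arrays and 388 to 727 on the 8 KO arrays, with no overlap. The labels do not say which part of the gene was deleted, so signal that remains in KO cannot be placed. Its interaction was -0.22 (95% interval -0.74 to 0.29) on its brightest probe set, and -1.15 on another of nearly the same mean level (9.95 on the log2 scale for both). The value therefore hangs on the probe set: leaving out 1 array, with the brightest probe set chosen anew, gave -1.35 to -0.10. Of the cardiomyocyte markers, all 15 could be tested, and Myh6, the main myosin heavy chain of the mouse ventricle, gave a signal of 62768 or more on every array. WT TAC replicate 3 had the lowest mean correlation with its own group, 0.940, against 0.954 to 0.969 for the others. It also had the highest spike-in signal (13.04 on the log2 scale) and the highest array median (163.0), while KO TAC replicates 2 and 3 had the lowest spike-in signals (12.13 and 12.002) and the lowest medians (108.3 and 114.5). Markers of atrial muscle varied widely within every group, with a mean of 3 such markers between 5.03 and 13.04 on the log2 scale.

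Across the ventricle, no single gene's response differed between genotypes beyond the error of the fit after correction, although the same families recurred among the genes closest to it. Among these, most genes of the extracellular matrix had higher responses in KO, except Efemp1, and genes of fatty acid oxidation had lower ones. Oxidative phosphorylation genes were lower as a list, not among the genes with the smallest p. Their median interaction of -0.36 became -0.03 under quantile normalization, and that of fatty acid oxidation genes went from -0.11 to -0.06. Of 10916 genes tested, 0 had an adjusted p under 0.05 (0% called; limma, Benjamini-Hochberg), and the smallest adjusted p was 0.125, shared by 18 genes. Before adjustment, 1128 genes (10.3% of those tested) had a p under 0.05, where 546 would be expected with no difference. Of these, 518 (4.75%) were higher and 610 (5.59%) lower in the KO response. These counts are the background for the counts below, and genes at an unadjusted p under 0.05 are called nominal there. Limma with a mean-variance trend and robust spread called 13 genes: Akap2, Bgn, Col8a1, Emp1, Enah, Gask1b, Lum and Rcan1 with higher responses in KO, and Ano10, Ech1, Eci1, Hadh and Hopx with lower ones. Of the 31 alternative settings, 26 called none.

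Of the 1128 nominal genes, 902 (80%) had responses of opposite sign in the genotypes, against 47.1% of all genes tested; choosing genes for a large difference favours opposite signs. In 780 of the 1128 (69.1%) the KO response was the larger in size, against 56.5% of all genes tested. The responses of all genes correlated weakly between genotypes (r = 0.10 across genes, which are not independent replicates, with different arrays on the axes). Centring each array on its median moved the median interaction of all genes from 0.01 to 0.25 and the nominal split from 518 higher and 610 lower to 1332 and 115. The direction of small interactions therefore depends on the scale, and values below are to be read against the median of all genes, 0.01 as deposited.

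**Figure D1:**
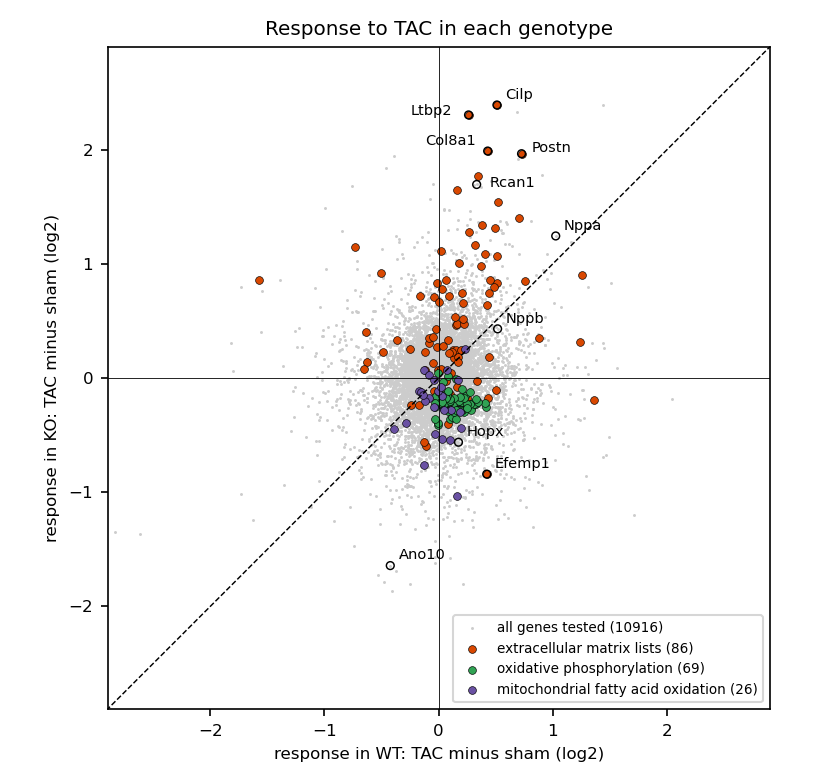
Response to TAC in WT (horizontal axis) and in KO (vertical axis), each as the log2 difference between TAC and sham means of 4 arrays, for 10916 genes; the dashed line marks equal responses. Matrix genes lie mostly above the line, for example Cilp at 0.51 in WT and 2.39 in KO. Of 69 oxidative phosphorylation genes, 68 lie below it, while Nppa lies near it.

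Most of the tested genes of the extracellular matrix had higher responses in KO than in WT. Of 113 listed matrix genes in 7 lists, 8 had no probe set and 19 were too dim to test, which left 86. In these, 26 were nominally higher and 3 nominally lower, 33.7% in either direction against 10.3% of all genes, and 66 had a positive interaction. Their median interaction was 0.32, from a median response of 0.15 in WT and 0.38 in KO. The mean of the 86 genes, relative to WT sham, lay between 0.48 and 0.60 on the log2 scale on the KO TAC arrays and between -0.09 and 0.27 on the other 12. No KO TAC array overlapped another array, and 3 of the 4 WT TAC arrays lay between 0.10 and 0.27. Since left ventricle is a mixture of cells, more cells of a type and more RNA per cell cannot be told apart here or below.

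Col8a1 encodes a short-chain collagen that forms networks in vessel walls and scar, and it had the smallest p among the genes with a positive interaction. Its signal on WT arrays was 971, 773, 919 and 695 in sham and 1614, 883, 1114 and 993 in TAC. On KO arrays it was 493, 733, 626 and 629 in sham and 3052, 2406, 2224 and 2158 in TAC. All 4 KO TAC arrays lay above the other 12, and the WT groups overlapped. The response was 1.35-fold in WT and 3.97-fold in KO, an interaction of 1.56 ± 0.26 (SE of the fit, 4 arrays a group; adjusted p = 0.125), and its other probe sets gave 1.43 and, at low signal, 3.72. Col8a1 passed an adjusted p of 0.05 when its probe sets were averaged (interaction 2.24, adjusted p = 0.0356) and without WT TAC replicate 1 (adjusted p = 0.0308), while over the 30 alternatives that tested it the adjusted p ran from 0.0138 to 0.420.

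The promoter of Col8a1, from 250 bases before to 50 bases after its start, is shown because this gene led the matrix genes; RefSeq places it on chr16:57754688-57754987 of GRCm38.p6, minus strand. Capitals mark an NFAT core (GGAAA, here as its reverse complement) starting 239 bases before the start and a SMAD motif (CAGAC) 103 bases before it.
Col8a1: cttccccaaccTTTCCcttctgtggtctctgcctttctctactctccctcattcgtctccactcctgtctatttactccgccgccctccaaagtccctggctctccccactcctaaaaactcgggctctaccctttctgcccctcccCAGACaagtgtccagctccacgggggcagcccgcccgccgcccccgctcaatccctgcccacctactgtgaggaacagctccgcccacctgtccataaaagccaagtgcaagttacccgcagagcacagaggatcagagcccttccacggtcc
Both strands were searched, and the motifs did not overlap. Such short motifs are common: 49.6% of 32851 promoters of the same length held the SMAD motif and 61.3% an NFAT core. Of 73 promoters matched to 61 of the 86 matrix genes, 53.4% held the SMAD motif, 65.8% an NFAT core, 5.48% an AP-1 motif (TGANTCA; 7.81% of all promoters) and 16.4% a TEAD motif (GGAATG; 14.7%). The nuclear receptor hexamer AGGTCA was in 12.3% of them and in 16.3% of all promoters, and 0 held a direct repeat of it. Among 11410 promoters of the genes tested here, the shares were 47% for SMAD, 58.2% for NFAT, 5.11% for AP-1, 12.2% for TEAD and 12.6% for AGGTCA. A match is only a match of letters.

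Fibrillar collagens, which form the stiff fibres of scar, had positive interactions in 7 of 7 tested genes, with a median of 0.82 (0.50 without KO sham replicate 1), and 3 were nominally higher. Col1a2, a chain of type I collagen, gave 0.96 ± 0.23 (SE; adjusted p = 0.231), with KO TAC signals of 5301, 5408, 5809 and 6252 and WT TAC signals of 3607, 2332, 3070 and 2282. Col3a1 gave 0.84 ± 0.25 and Col5a2 0.82 ± 0.24. Col1a1, the other chain of type I collagen, went against its partner with 0.10 ± 0.53, since its signal on KO TAC replicate 3 was 649 against 2788, 1901 and 2316 on the others. Without that array Col1a1 gave 0.55, and its second probe set gave 0.65, while leaving out any of 4 other arrays made it negative. Among short-chain and fibril-associated collagens, 3 of 7 were nominally higher, including Col6a3, a chain of the beaded type VI collagen, at 0.64 ± 0.18. Basement membrane genes stood in contrast within the matrix: of 19, 0 were nominally higher and 1 lower, with a median of 0.04 (-0.01 to 0.18 with 1 array left out).

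Enzymes that fold and crosslink collagen followed the same direction in 15 of 16 tested genes, with a median of 0.35 (0.22 without KO sham replicate 1) and 3 nominally higher. Lox, lysyl oxidase, which crosslinks collagen and elastin, had signals of 595, 363, 760 and 759 on KO TAC arrays and 266, 217, 167 and 136 on KO sham arrays. In WT it was 233, 253, 222 and 217 in sham and 356, 234, 191 and 279 in TAC. The KO groups were apart and the WT groups overlapped, and the interaction was 1.48 ± 0.36 (SE; adjusted p = 0.231). P4ha1, a subunit of the enzyme that hydroxylates collagen prolines, gave 0.88 ± 0.21.

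Matricellular proteins, which sit in the matrix and signal to cells rather than bear load, had the highest share of nominally higher genes among the matrix lists, 9 of 14, with 0 lower and a median of 0.76. Cilp, cartilage intermediate layer protein, had signals of 426, 401, 367 and 645 in KO sham and 2337, 2902, 2484 and 1821 in KO TAC. In WT they were 998, 613, 950 and 379 in sham and 1435, 861, 916 and 802 in TAC. The KO TAC arrays lay above all others, the WT groups overlapped, and the response was 1.42-fold in WT and 5.25-fold in KO (interaction 1.88 ± 0.41, SE; adjusted p = 0.199). Postn, periostin, a marker of activated fibroblasts, was higher under TAC in both genotypes, at 2167 to 3083 in WT TAC and 4212 to 8723 in KO TAC against 1110 to 1610 in all sham arrays. Its interaction was 1.24 ± 0.29. Ccn2, connective tissue growth factor, gave 1.42 ± 0.38, but WT TAC replicate 3 stood at 10872, within the KO TAC range of 7279 to 13594, while the other WT TAC arrays lay at 3782 to 4767. Without that array it gave 1.75.

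Small proteoglycans, which bind collagen fibrils and set their spacing, had a median interaction of 0.69 over 10 genes, with 4 nominally higher and 0 lower. The median was 0.24 without the 3 arrays named above for their spike-in signals (called spike-in outliers below). Lum, lumican, was 7542, 8554, 7610 and 7429 on KO TAC arrays and 3738 to 5586 on the other 12. Bgn, biglycan, was 10306, 10731, 10311 and 9343 on KO TAC arrays and 3828 to 7508 elsewhere. In both genes the KO TAC arrays lay apart from all others, with interactions of 0.80 ± 0.15 for Lum and 1.01 ± 0.20 for Bgn (SE; adjusted p = 0.125 for both). All 3 probe sets of Bgn gave between 1.01 and 1.18.

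**Figure D2:**
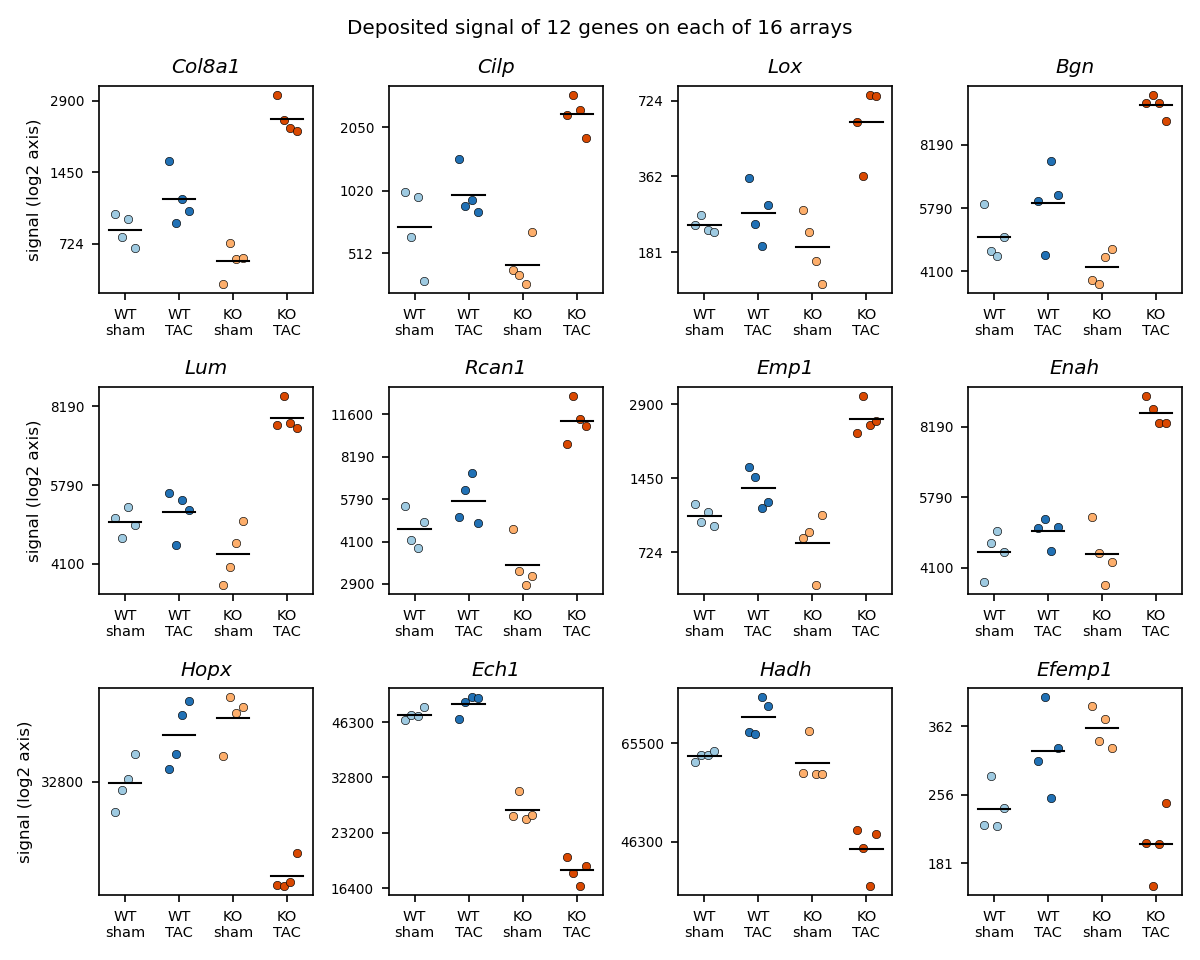
Deposited signal (log2 axis) of 12 genes on each of the 16 arrays, 4 per group, with a bar at each group's geometric mean. In Col8a1, Cilp, Lox, Bgn, Lum, Rcan1, Emp1 and Enah the 4 KO TAC arrays lie above the other 12, and in Hopx, Ech1 and Hadh they lie below.

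Elastic fibre and microfibril genes split: 4 of 13 were nominally higher and 2 lower, with a median of 0.41 (0.20 without the 3 spike-in outliers). That median rested on few arrays: it was 0.03 without WT TAC replicate 4, 0.15 without WT sham replicate 1 and 0.25 without KO sham replicate 4. Ltbp2, a latent TGF-beta binding protein of microfibrils, gave 2.04 ± 0.49, with KO sham signals of 79, 120, 31 and 63 and KO TAC signals of 359, 250, 420 and 294. WT TAC replicate 4 reached 310 for Ltbp2, inside the KO TAC range. Efemp1, fibulin-3, a glycoprotein of the same fibres, went the other way: it was 400, 336, 376 and 324 in KO sham and 201, 162, 200 and 246 in KO TAC. In WT its signal was 220, 281, 219 and 239 in sham and 304, 419, 252 and 323 in TAC. Efemp1 thus had opposite responses, 1.34-fold in WT and 0.56-fold in KO, and an interaction of -1.26 ± 0.22 (SE; adjusted p = 0.125).

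Of 21 genes of TGF-beta ligands, latency and receptors, 5 were nominally higher and 0 lower, with a median of 0.02, so the list as a whole lay at the median of all genes. Tgfbr1, the type I receptor, gave 0.75 ± 0.18, with signals of 1032 to 1332 in KO TAC and 616 to 928 on the other 12 arrays. Timp1, which inhibits matrix metalloproteinases, gave 1.23 ± 0.51, and 0.75 without KO sham replicate 3, where its signal was 92. Its list, metalloproteinases and their inhibitors, had 2 of 14 nominally higher and 0 lower, with a median of 0.07. Among integrins and focal adhesion proteins, through which cells hold the matrix, 4 of 21 were nominally higher, including Itgbl1 at 0.75 ± 0.28 and Itgav at 0.51 ± 0.18.

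**Figure D3:**
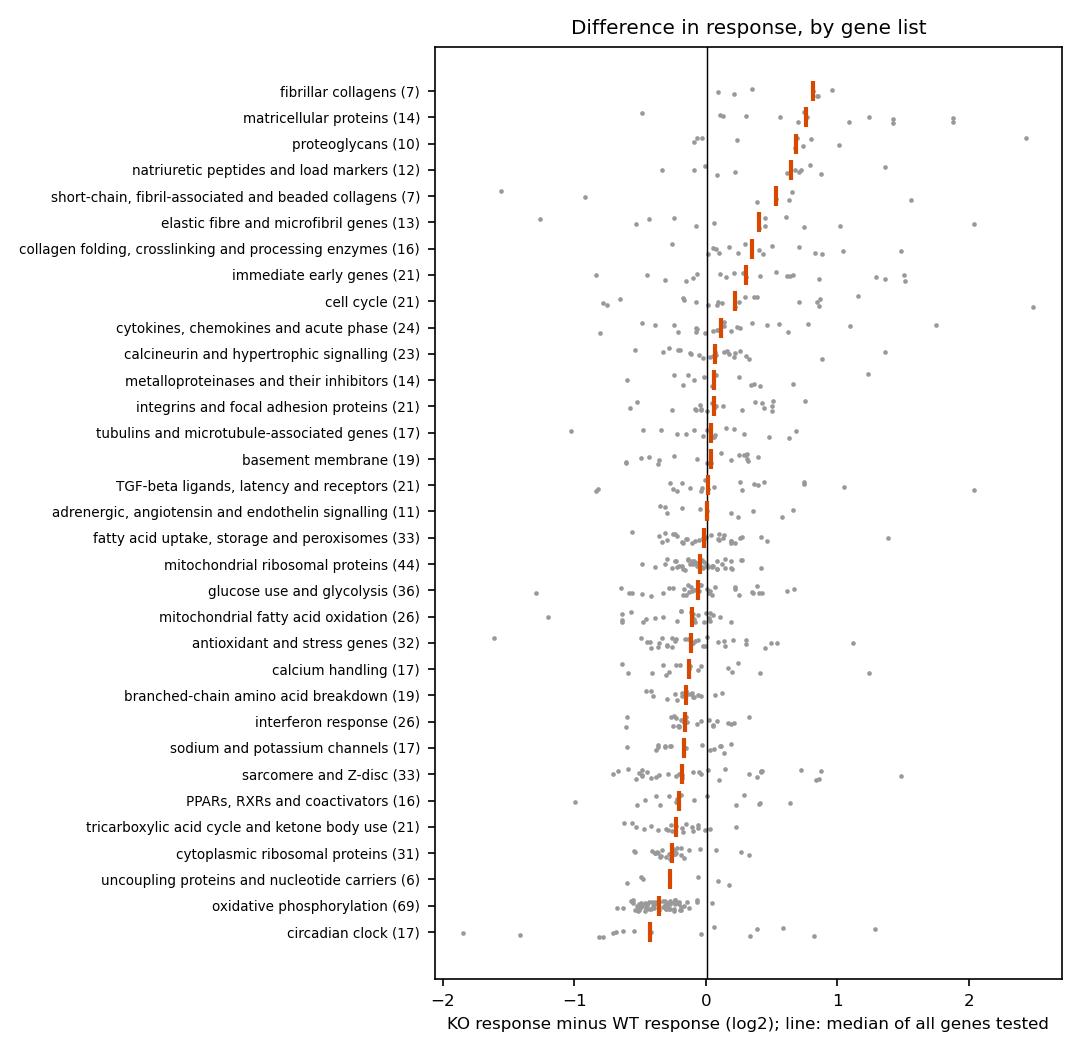
Interaction of each tested gene (grey points) by gene list, with the number tested in brackets, a bar at the list's median and a line at the median of all genes tested, in log2 units. Among the pathway lists plotted, fibrillar collagens have a median of 0.82 and matricellular proteins 0.76, and oxidative phosphorylation has a median of -0.36 with 68 of 69 genes below 0.

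The list of natriuretic peptides and load markers had 3 of 12 genes nominally higher (Rcan1, Actn1 and Xirp1, an actin-binding protein of intercalated discs) and 0 lower, and 9 had a positive interaction. Its median was 0.65, 0.47 without the 3 spike-in outliers and 0.35 without KO sham replicate 3. The list mean was 0.85 to 1.10 on KO TAC arrays and at most 0.62 elsewhere, with no overlap. For the peptides themselves the intervals spanned 0. Nppa, atrial natriuretic peptide, was 32398 to 48346 in WT TAC against 15482 to 23588 in WT sham, and 55592 to 69234 in KO TAC against 22314 to 29135 in KO sham. Its response was 2.04-fold in WT and 2.37-fold in KO, with an interaction of 0.22 and a 95% interval of -0.25 to 0.69. For Nppb, the B-type peptide, the interaction was -0.09 (-0.58 to 0.41), and for Ankrd1, a stretch-responsive titin partner, -0.33 (-0.83 to 0.17). Both turned positive under quantile normalization and with a spike-in covariate. Acta1, skeletal alpha-actin, a fetal gene, gave 0.87 (-0.03 to 1.78), and Myh7, the slow myosin heavy chain, 0.72 (-0.53 to 1.97). These intervals leave room for differences in either direction, except that for Acta1 little room is left below 0.

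Rcan1 had the smallest p on the load list. It encodes a regulator that binds and restrains calcineurin, and a short form of it is known to be transcribed when calcineurin activates NFAT factors. Its signal was 4545, 3236, 2884 and 3104 in KO sham and 9098, 13430, 11204 and 10586 in KO TAC. In WT it was 5506, 4146, 3877 and 4821 in sham and 5003, 6254, 7196 and 4772 in TAC. The KO TAC arrays lay above the other 12 and the WT groups overlapped, with responses of 1.26-fold in WT and 3.24-fold in KO. The interaction was 1.36 ± 0.25 (95% interval 0.82 to 1.90; adjusted p = 0.125), and a second probe set gave 1.78. The calcineurin and hypertrophic signalling list, which holds Rcan1, had 3 of 23 genes nominally higher and 0 lower, with a median of 0.07.

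Both RefSeq starts of Rcan1 are shown because NFAT sites are known at the internal one. The internal start lies on chr16:92400029-92400328 and the upstream start on chr16:92466120-92466419, both on the minus strand of GRCm38.p6, from 250 bases before to 50 after the start. Capitals mark NFAT cores (GGAAA on either strand), a SMAD motif (CAGAC) in each and, in the internal promoter, an AP-1 motif (TGANTCA).
Rcan1 internal start: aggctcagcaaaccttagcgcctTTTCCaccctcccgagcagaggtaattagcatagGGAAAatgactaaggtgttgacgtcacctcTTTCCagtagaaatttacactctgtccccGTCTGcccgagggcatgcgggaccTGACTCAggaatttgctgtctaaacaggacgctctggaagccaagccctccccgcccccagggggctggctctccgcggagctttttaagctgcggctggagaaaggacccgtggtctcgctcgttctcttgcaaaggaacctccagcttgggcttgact
Rcan1 upstream start: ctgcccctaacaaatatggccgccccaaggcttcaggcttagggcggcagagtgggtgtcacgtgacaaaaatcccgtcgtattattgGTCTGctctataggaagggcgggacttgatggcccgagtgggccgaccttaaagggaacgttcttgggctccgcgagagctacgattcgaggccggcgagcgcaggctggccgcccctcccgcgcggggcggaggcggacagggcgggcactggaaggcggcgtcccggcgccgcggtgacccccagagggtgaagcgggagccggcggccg
The internal promoter held 3 NFAT cores, at 227, 193 and 163 bases before the start, and 9.42% of all promoters held as many; the upstream promoter held 0. The NFAT core was added to the motifs after the value of Rcan1 was seen. The array's probe sets were not assigned to a start, so which transcript gave the signal was not tested.

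**Figure D4:**
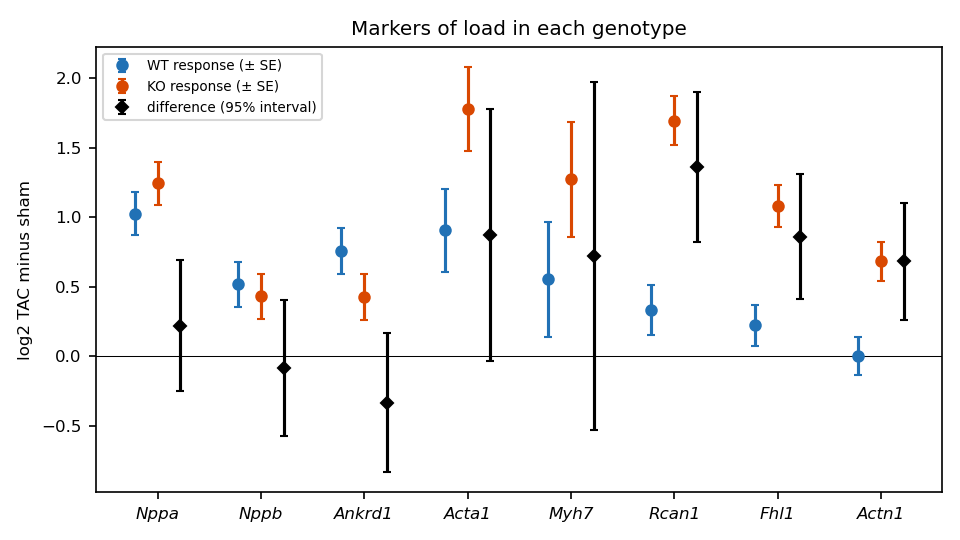
Response to TAC in WT and in KO (points ± SE) and their difference with its 95% interval (diamonds), in log2 units, for 8 genes of load and of the cytoskeleton. The interval spans 0 for Nppa, Nppb, Ankrd1, Acta1 and Myh7, and lies above 0 for Rcan1, Fhl1 and Actn1.

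Of the 15 genes named for the smallest p among positive interactions, 11 had KO TAC arrays above all other arrays. All 15 had KO groups that did not overlap, and 2 had WT groups that did not. Choosing genes for a small p favours such separation, and its share over all genes was not counted. Enah, an actin regulator of the Ena/VASP family found at intercalated discs, was 9512, 8935, 8361 and 8334 in KO TAC and 3772 to 5272 elsewhere (interaction 0.85 ± 0.16, SE; adjusted p = 0.125). Emp1, a small membrane protein, was 2220, 3120, 2381 and 2475 in KO TAC and 535 to 1618 elsewhere (1.30 ± 0.26). In both genes the KO TAC arrays lay above the other 12. Beyond the 15 genes, and named as list members, Fhl1, a LIM protein of the stretch sensor at the sarcomere, gave 0.86 ± 0.21 and Actn1, a non-muscle alpha-actinin, 0.68 ± 0.20.

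In several of these genes the WT response was below 1-fold and made part of the interaction. Akap2, which anchors protein kinase A, was 0.84-fold in WT and 1.71-fold in KO (1.02 ± 0.19). It passed an adjusted p of 0.05 without KO TAC replicate 1 (adjusted p = 0.0312). A dimmer probe set of Akap2 gave 0.28. Serp1, a stress-induced protein of the endoplasmic reticulum, was 0.75-fold in WT and 1.24-fold in KO. Uck2 and Ctps, both enzymes of pyrimidine nucleotide synthesis, gave 0.97 ± 0.20 and 0.83 ± 0.18, with WT responses of 0.99-fold and 0.75-fold. Prss23, a secreted protease, gave 1.403 ± 0.31 with 0.68-fold in WT and 1.80-fold in KO, and its other probe sets gave 0.84 and -0.74. Ckap4, a membrane protein of the endoplasmic reticulum, differed from these with a WT response of 1.15-fold. Its interaction was 0.85 ± 0.19, and 0.71, 0.23 and -0.30 on its other probe sets.

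Enzymes of mitochondrial fatty acid oxidation had lower responses in KO. Of 26 tested genes, 9 were nominally lower and 0 higher, beside backgrounds of 5.59% and 4.75%, and the median was -0.11 (-0.17 without KO TAC replicate 4). The list mean lay between -0.77 and -0.68 on the 4 KO TAC arrays and between -0.50 and -0.40 in KO sham. It lay between -0.07 and 0.05 on the 8 WT arrays. KO TAC thus lay below every other array, but effects of genotype and of TAC that only add up could give the same order. Here and elsewhere, KO TAC lying apart from all other arrays does not by itself show an interaction. The list's median became 0.14 with arrays centred on their medians, where all genes had a median of 0.25, and stayed negative, at -0.06 to -0.25, under quantile normalization, with either covariate and without the 3 spike-in outliers.

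Ech1, an isomerase for unsaturated fatty acids, was 25753, 30043, 25302 and 25845 in KO sham and 19910, 18017, 16666 and 18901 in KO TAC. In WT it was 46960, 48388, 48065 and 51036 in sham and 47321, 52731, 54115 and 54031 in TAC. The WT groups overlapped and the KO groups did not, and the interaction was -0.64 ± 0.13 (SE; adjusted p = 0.125). Hadh, which oxidises hydroxyacyl-CoA, was 61268 to 63710 in WT sham, 67830 to 77046 in WT TAC, 58840 to 68450 in KO sham and 39678 to 48311 in KO TAC. Sham and TAC did not overlap in either genotype for Hadh on its brightest probe set. The responses there had opposite signs, 1.15-fold in WT and 0.74-fold in KO (-0.64 ± 0.13). Its other probe sets gave interactions of -0.34 and -1.02, with log2 WT responses of -0.08 and -0.20, so the opposite signs were not repeated. Eci1, an enoyl-CoA isomerase, gave -0.57 ± 0.12, Acaa2, the thiolase that cuts off acetyl-CoA, -0.63 ± 0.15, and Acadm, the medium-chain acyl-CoA dehydrogenase, -0.39 ± 0.12. Under quantile normalization Ech1 gave -0.37, Hadh -0.20, Eci1 -0.48, Acaa2 -0.53 and Acadm -0.08.

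Not every gene of fatty acid use followed. Cd36, a fatty acid transporter, gave -0.02 (95% interval -0.35 to 0.32), although its direction turned with the scaling. Plin5, a lipid droplet protein, gave 0.00 (-0.52 to 0.52) at a level far lower in KO: 5492 to 7049 on WT arrays and 768 to 1366 on KO arrays. Pdk4, which restrains glucose oxidation, gave 0.25 (-0.39 to 0.90). On the list of fatty acid uptake, storage and peroxisomes, 2 of 33 were nominally higher and 3 lower, with a median of -0.01. Lpl, lipoprotein lipase, was one of those lower, at -0.56 ± 0.17, with its highest signal, 110612, on WT TAC replicate 3. It gave -0.46 without that array, -0.30 without the 3 spike-in outliers and -0.03 under quantile normalization.

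Oxidative phosphorylation genes, which encode the respiratory chain and ATP synthase, had lower responses in KO: 43 of 69 were nominally lower, 0 higher, and 68 had a negative interaction. The median was -0.36, from 0.12 in WT and -0.22 in KO. The list mean was 0.06, 0.12, 0.22 and 0.14 on WT TAC arrays and -0.01, -0.20, -0.29 and -0.10 on KO TAC arrays. Its highest array was WT TAC replicate 3 and its lowest were KO TAC replicates 2 and 3, which also had the outlying spike-in signals and array medians. The median was -0.23 without these 3 arrays, -0.11 with a spike-in covariate and -0.03 under quantile normalization. After median centring it was -0.11, where all genes had a median of 0.25. The part of array brightness in this result was not tested. Atp5g2, a ring subunit of ATP synthase, gave -0.45 ± 0.12, and Uqcrb, a subunit of complex III, -0.55 ± 0.15, which became -0.35 without the 3 arrays and turned to 0.02 under quantile normalization.

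Further metabolic and ribosomal lists had negative medians too. The tricarboxylic acid cycle list had 9 of 21 nominally lower and a median of -0.23 (-0.04 under quantile normalization), with Sdhb, the iron-sulphur subunit of succinate dehydrogenase, at -0.62 ± 0.17 (-0.40 without the 3 spike-in outliers). Mdh1, the cytosolic malate dehydrogenase, gave -0.56 ± 0.17 on its brightest probe set but -0.18 on one of nearly the same level. With the brightest set chosen anew, Mdh1 gave -0.23, -0.22, -0.29 and -0.13 without WT TAC replicate 3, WT TAC replicate 4, KO sham replicate 3 and KO TAC replicate 4, and -0.16 without the 3 spike-in outliers. It gave 0.20 under quantile normalization, so no direction is given. Cytoplasmic ribosomal proteins had 9 of 31 nominally lower and a median of -0.26 (-0.05), with Rps3 at -0.54 ± 0.13. Mitochondrial ribosomal proteins, by contrast, had 4 of 44 nominally lower and a median of -0.05.

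**Figure D5:**
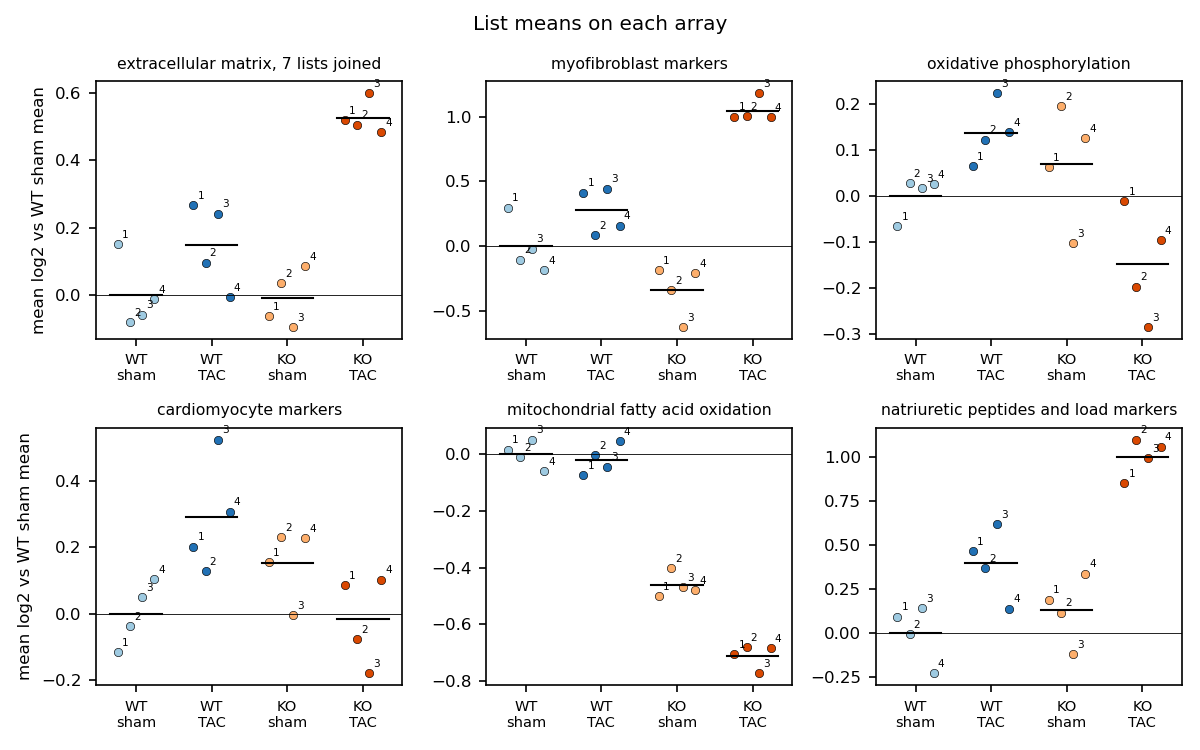
Mean of 6 gene lists on each array (points, numbered by replicate) relative to the WT sham mean, in log2 units, with a bar at each group's mean. Matrix, myofibroblast and load marker lists are highest on all 4 KO TAC arrays and the fatty acid oxidation list lowest there, whereas oxidative phosphorylation and cardiomyocyte markers overlap between groups and peak on WT TAC replicate 3.

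Cardiomyocyte markers and genes of the contractile apparatus also gave values that depended on the normalization. All 15 cardiomyocyte markers had a negative interaction and 12 were nominally lower, with a median of -0.48, which became 0.03 under quantile normalization and -0.25 without the 3 arrays. Pln, phospholamban, the brake of the calcium pump, gave -0.63 ± 0.16, Atp2a2, that pump, -0.59 ± 0.18, and Tnni3, cardiac troponin I, -0.51 ± 0.14. Without the 3 arrays Pln gave -0.41, Atp2a2 -0.34 and Tnni3 -0.33. Myh6 gave -0.48 ± 0.17, -0.25 without the 3 arrays and 0.09 under quantile normalization. A dimmer probe set gave 0.29 for Atp2a2 and 0.18 for Myh6. Of 33 sarcomere and Z-disc genes, 12 were nominally lower and 4 higher, and the median of -0.18 became 0.08 under quantile normalization, -0.08 without the 3 arrays and -0.12 without WT TAC replicate 3. The part of array brightness or of fewer muscle cells in these values was not tested.

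Hopx, a homeodomain protein without DNA binding that modulates heart growth, had the smallest p of all genes with a negative interaction. Its signal in KO was 34973, 40410, 38879 and 39460 in sham and 25413, 25394, 25650 and 27554 in TAC. In WT it was 30491, 32180, 33052 and 35163 in sham and 33859, 35119, 38731 and 40082 in TAC. All 4 KO TAC arrays lay below the other 12, and the response was 1.13-fold in WT and 0.68-fold in KO (interaction -0.74 ± 0.12, SE; adjusted p = 0.125). A second probe set gave -0.63. Hopx kept 1 sign in the 30 alternatives that tested it. Of the 68 followed genes that were nominal, 64 kept theirs in the 18 to 30 that tested each. The alternatives reuse the same arrays and many of these genes were chosen for a small p, so kept signs were likely in advance.

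Among the other lower genes, Ano10, a member of the anoctamin membrane proteins, was 0.75-fold in WT and 0.32-fold in KO, with 762 to 967 in KO TAC and 1553 to 3190 elsewhere (-1.22 ± 0.25). Kdm6b, a histone demethylase, gave -1.28 ± 0.29, -0.86 without the 3 spike-in outliers, and -0.74 and 0.65 on its dimmer probe sets. H3f3a, a histone gene, gave -1.04 ± 0.26 (-0.67 without the 3 spike-in outliers). Irgm2, an interferon-induced GTPase, was 1.55-fold in WT and 0.77-fold in KO (-1.01 ± 0.20). The interferon list, which does not hold Irgm2, had 2 of 26 genes nominally lower and 0 higher, 7.69% against 10.3% of all genes. These were Psmb8, an immunoproteasome subunit, at -0.60 ± 0.22 and Tap1, a peptide transporter, at -0.60 ± 0.22. Nnt, a mitochondrial transhydrogenase, gave -0.60 ± 0.15, from 28077 to 34447 in KO sham and 18560 to 22467 in KO TAC. Its WT arrays lay at 12800 to 15735; since the labels name no strain, strain background and knockout cannot be told apart in that gap.

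Genes of glucose use were divided: 3 of 36 were nominally higher and 4 lower. Pfkp, the platelet-type phosphofructokinase, gave 0.62 ± 0.16, whereas Eno3, the muscle enolase, gave -0.58 ± 0.16. Fbp2, muscle fructose bisphosphatase, gave -1.29 ± 0.55 at low KO signals of 15 to 143 against 935 to 1182 in WT. Among antioxidant and stress genes, 2 of 32 were nominally higher and 6 lower. Gpx3, a secreted glutathione peroxidase, gave 0.54 ± 0.16 and Gstm1, a glutathione transferase, -0.49 ± 0.13 (0.03 on a dimmer probe set). Ace, angiotensin-converting enzyme, gave 0.67 ± 0.18, with 701 to 789 in KO TAC and 427 to 636 elsewhere. On its list of adrenergic, angiotensin and endothelin signalling, 1 of 11 was nominal, 9.09% against 10.3% of all genes, with a median of 0.01.

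Immediate early genes, which are induced within a short time of a stimulus, had 6 of 21 nominally higher and 1 lower, with a median of 0.31. The median was 0.02 with a spike-in covariate and 0.15 without the 3 spike-in outliers, and 0.46 or 0.47 without WT sham replicate 2, WT TAC replicate 2 or KO sham replicate 3. Egr2, a zinc finger factor of this class, gave 1.37 ± 0.45. The orphan receptor Nr4a3 gave 1.51 ± 0.35 on its brightest probe set, but -0.93 and -0.88 on the others. Ccne1, cyclin E, gave 2.49 ± 0.59 on one probe set and -1.22 on another, so no direction is given for either gene. On the circadian list 4 of 17 were nominally lower and 1 higher, and Per3, a repressor of the clock, gave -1.41 ± 0.52 on its brightest probe set but -1.12 to 1.32 on the others, so it too is given no direction; the time of day of tissue collection is not in the labels.

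Markers of other cell types were set beside these values. Of 9 tested myofibroblast markers, 5 were nominally higher and 0 lower (median 1.24, and 1.52 without the 3 spike-in outliers); 2 of the 11 listed were too dim, and the list shares genes with the matrix lists. Their mean was 0.99 to 1.18 on KO TAC arrays and at most 0.44 elsewhere. Fibroblast markers had 4 of 14 higher (median 0.46), with means of 0.48 to 0.66 in KO TAC and at most 0.33 elsewhere. This list too shares genes with the matrix lists, among them the nominally higher Lum, Col1a2 and Col3a1, so it is no separate evidence. Endothelial markers had 0 of 14 in either direction (median 0.03), and macrophage markers 1 of 18 higher (median 0.14). Valve and cartilage markers had 2 of 4 higher and 0 lower (median 1.20), with means of -0.31 to 1.00 in KO TAC and up to 0.66 elsewhere. Mesothelial and epicardial markers had 1 of 3 higher and 1 lower (median 0.75), with means of -0.07 to 0.66 in KO TAC and up to 0.58 elsewhere, so KO TAC overlapped other arrays on both lists. The part of fibroblast number, or of valve or epicardial tissue, in the matrix values was not tested.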

How the data were processed

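The authors deposited a table of signal intensity on a linear scale; the submitters' processing notes name GCOS 1.4, and neither detection calls nor algorithm settings are known here. The deposited intensity of each array has a mean of about 500 between the 2nd and 98th percentiles. Values under 11.9, the 10th percentile, were set to it, and log2 was taken without further normalization. Each gene was represented by its brightest probe set with 1 symbol, and genes in the lowest 40% by mean were not tested. A two-sided test came from limma 3.58.1 (R 4.3.3), with a cell-means design over the 4 groups and all 16 arrays, with Benjamini-Hochberg adjustment; the steps were tested on simulated data. The members and lists were chosen with earlier results of these data known. Named genes were the 15 with the smallest p in each direction, the 2 with the smallest p in each pathway list and a fixed panel; the text describes a part of them. Motifs were searched in RefSeq promoters. The number of arrays, 4 a group, limits the precision. Alternatives were other normalizations, floors, filters, probe sets, spread models, covariates, a replicate block and leaving out arrays.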

Additional observations from a re-analysis of the deposited data

Results flagged for a closer look

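Of 332 groups of 4 arrays examined, 24 (7.23%) held 1 array far from the other 3, where chance gives about 1 in 20. The value given is the gap from that array to its nearest neighbour as a share of the group's range. KO sham replicate 2 was the highest of its group for Ech1 (0.876), Hadh (0.98) and Eci1 (0.842); without it their interactions were -0.58, -0.58 and -0.53. WT sham replicate 1 was far from its group in 6 cases: high for Col1a1 (0.873) and low for Tgfbr1 (0.847), Ace (0.946), Pdk4 (0.887), Ccne1 (0.84) and the oxidative phosphorylation list (0.888). KO TAC replicate 2 was high for Lum (0.8293) and Actn1 (0.887) and low for Col3a1 (0.979). KO TAC replicate 3 was high for Uck2 (0.833) and the myofibroblast markers (0.94), and KO TAC replicate 4 for Hopx (0.877). WT TAC replicate 3 was low for Ctps (0.843), Cd36 (0.887) and Pfkp (0.867), and WT TAC replicate 4 high for Ltbp2 (0.929) and Tap1 (0.968). The others were Ankrd1, high in KO sham replicate 4 (0.924), Eno3, high in WT sham replicate 4 (0.879), Uqcrb, low in KO sham replicate 3 (0.933), and Per3, low in WT sham replicate 2 (0.881).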

How the results depend on the processing

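Of 78 genes followed, 68 kept 1 sign in every alternative that tested them (18 to 30 a gene). All alternatives reuse the same arrays, so this count is no independent evidence. The count of called genes, 0, became 13 with trend and robust spread (8 higher, 5 lower), 1 with no filter (lower, Nnat), 1 with the mean of probe sets (Col8a1, higher), and 0 to 1 when arrays were left out. Median centring gave 1332 nominally higher and 115 nominally lower genes. These counts were 1007 and 1347 with all probe sets, 269 and 302 with the spike-in covariate, and 341 higher without the 3 spike-in outliers (WT TAC replicate 3, KO TAC replicates 2 and 3); leaving out 1 array gave 363 to 626 higher and 483 to 721 lower. The matrix median was 0.56 when centred, where the median of all genes was 0.25. The oxidative phosphorylation median was -0.031 under quantile normalization, -0.11 centred, -0.11 with the spike-in covariate and -0.23 without the 3 arrays. Signs turned under quantile normalization for Nppb (0.26), Ankrd1 (0.083), Myh6 (0.085), Cd36 (0.080), Plin5 (-0.039), Mdh1 (0.20) and Uqcrb (0.023). They turned when centred for Nppb (0.16), Cd36 (0.23) and Ppara (0.025), all below the centred median of all genes, 0.25. Other turns came with the mean of probe sets for Nr4a3 (-0.10), and with array weights for Col1a1 (-0.00095) and Plin5 (-0.036). With the spike-in covariate Nppb gave 0.30, Ankrd1 0.19 and Plin5 -0.094; without the 3 arrays Nppb gave 0.18 and Plin5 -0.024; with the atrial covariate Cd36 gave 0.0065. Leaving out 1 array gave -0.15 to 0.55 for Col1a1, -0.10 to 0.052 for Cd36, -0.11 to 0.13 for Plin5 and -0.20 to 0.032 for Nppb. Centring rescales each array as a whole, so the turns under it came with a shift of all genes. The cause of the remaining turns was not tested. With the replicate number as a block, 0 genes were called (smallest adjusted p = 0.208); the labels give no pairing, and same-numbered arrays deviated together with a mean r of 0.01, over 0.1 in 5 of 24 pairs. With 4 arrays a group, differences of the size seen for Nppb or Cd36 could not be resolved.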

Other observations

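Nnat, neuronatin, an imprinted gene of the endoplasmic reticulum, was below the filter on dim genes and was chosen after its values were seen. Its 1 probe set gave 107.3, 140.1, 114.4 and 115.6 in KO sham and 19.3, 5.1, 9.4 and 8.8 in KO TAC. The WT sham values were 16.4, 5.4, 16.8 and 12.1, and the WT TAC values 14, 14.1, 25.8 and 22.4. The KO sham arrays thus stood above the other 12. It was the only one of 18193 genes that limma called with no filter. Values under the floor of 11.9, here 3 KO TAC arrays and 1 WT sham array, were set to it in that fit, so the fitted size depends on the floor and is not given.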
